A study of Mus musculus with 12 samples.

Results

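Constant active enhancers are stretches of the mouse genome, away from genes, that carried the enhancer mark H3K4me1 and the activity mark H3K27ac in every library of these marks and the promoter mark H3K4me3 in none. They were found by merging overlapping peaks of 4 H3K4me1 lists into 139885 regions. A region was kept if it was present in all 4 H3K4me1 lists, lay over 1 kb from both ends of every protein-coding gene, held an H3K27ac peak of each of 4 lists, and met no peak of the 4 H3K4me3 lists. These steps left 46121, 33215, 10735 and lastly 1595 regions, so that the constant active enhancers are 1.14% of the merged regions. They were chosen by the presence of peaks in the 8 H3K4me1 and H3K27ac lists and their absence in the 4 H3K4me3 lists, whatever the genotype, and that pattern is a description and not a finding.

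The study profiled the 3 marks by chromatin immunoprecipitation and sequencing (ChIP-seq) in cKit+ bone marrow cells of C57BL/6 mice. The Tg mice carry Phf6 R274X, a truncating form of a chromatin-associated protein, as a transgene, and the WT mice are wild type. The promoter that drives the transgene, whether the mice keep their own Phf6, and the age and sex of the mice are not given in the sources used here. There were 2 Tg and 2 WT libraries for each mark, numbered 1 and 2. Nothing in the labels says that the replicates came from separate animals, so p-values measure the spread between these libraries only. cKit, the receptor for stem cell factor, is carried by blood stem and progenitor cells and also by mast cells, so the sorted cells are a mixture.

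An enhancer is a DNA element that raises transcription of a gene at a distance. Enzymes of the MLL3 and MLL4 family place H3K4me1 at such elements, and p300 and CBP acetylate H3K27 when they are active. Elements with H3K4me1 and no H3K27ac are usually called primed, while H3K4me3 is best known from active promoters and is usually low at enhancers.

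Several libraries stood apart from their labels or from each other. The peak names inside all 4 H3K4me3 lists carried the genotype opposite to the label. The replicate 1 H3K4me3 libraries of both labels had peaks at 4 of 4 Y-linked genes examined and 0 at Xist. The other 10 libraries had peaks at 0 of those Y-linked genes and 1 to 6 peaks at Xist. The H3K4me3 criterion therefore rests in part on libraries that differ in these peaks from those of the other marks. Whether they came from mice of another sex was not tested. Because an H3K4me3 peak of any list removed a region, exchanging the H3K4me3 labels leaves the same 1595 regions. The H3K27ac lists held 33179 and 38839 peaks in Tg, against 42124 and 31257 in WT. The H3K4me1 lists held 104781 and 121172 peaks in Tg, against 100316 and 130348 in WT. Reads were not counted in these lists, so the depth behind each value is unknown.

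Non-coding gene starts gave the constant active enhancers whose sequence could be shown, since RefSeq promoter windows of build GRCm38.p6 were the sequences at hand. A window runs from 250 bases before to 50 bases after an annotated start. There were 36 such windows in 32 members, and 31 members (1.94%) held the start of a long non-coding RNA (lncRNA). Among primed enhancers that share was 1.12%, and among distal active regions with H3K4me3 in all 4 lists it was 4.04%. Median region widths were 2090 bp in members, 1365 bp in primed enhancers and 2571.5 bp in the regions with H3K4me3. The part of width in these shares was not tested. The start lay within 500 bp of the strongest H3K27ac summit of every library for 11 of the windows. The 4 windows printed here are the lncRNA windows of that kind, lying wholly inside a member, with the highest H3K27ac rank. Capitals mark CAGGAA, a core of sites bound by ETS factors such as Spi1 and Erg, and TGTGGT, a core bound by Runx factors, on either strand.
Gm38855 start, chr6:88053795-88054094, minus strand: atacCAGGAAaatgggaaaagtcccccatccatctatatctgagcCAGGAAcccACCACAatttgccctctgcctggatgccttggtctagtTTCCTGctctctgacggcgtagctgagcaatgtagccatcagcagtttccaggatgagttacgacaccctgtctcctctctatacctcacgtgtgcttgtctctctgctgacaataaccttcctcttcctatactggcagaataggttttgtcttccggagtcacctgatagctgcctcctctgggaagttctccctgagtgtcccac
4732465J04Rik start, chr10:95772883-95773182, plus strand: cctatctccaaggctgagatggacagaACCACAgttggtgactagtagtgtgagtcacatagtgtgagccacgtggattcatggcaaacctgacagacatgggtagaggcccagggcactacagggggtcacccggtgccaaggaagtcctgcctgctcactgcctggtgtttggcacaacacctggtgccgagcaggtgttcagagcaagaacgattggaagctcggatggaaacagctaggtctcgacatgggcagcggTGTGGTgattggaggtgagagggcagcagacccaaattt
Gm34464 start, chrX:109191068-109191367, minus strand: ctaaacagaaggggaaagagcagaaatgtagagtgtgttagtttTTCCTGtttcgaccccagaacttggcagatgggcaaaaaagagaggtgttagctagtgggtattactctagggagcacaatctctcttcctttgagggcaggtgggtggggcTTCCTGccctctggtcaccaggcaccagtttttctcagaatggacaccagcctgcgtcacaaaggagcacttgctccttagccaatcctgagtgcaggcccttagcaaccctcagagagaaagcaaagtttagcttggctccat
Gm51710 start, chr9:63731358-63731657, plus strand: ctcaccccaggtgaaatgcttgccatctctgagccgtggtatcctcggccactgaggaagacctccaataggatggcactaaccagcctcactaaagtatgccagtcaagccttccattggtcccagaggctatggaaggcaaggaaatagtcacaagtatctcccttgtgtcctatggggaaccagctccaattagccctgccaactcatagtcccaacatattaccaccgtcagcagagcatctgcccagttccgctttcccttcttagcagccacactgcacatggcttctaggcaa

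The Gm38855 window, nearest to the protein-coding gene Rab7, a regulator of late endosomes, held both motifs. Its member had 1707 and 1212 bp of H3K27ac peaks in Tg, against 2125 and 1586 bp in WT. The 4732465J04Rik window, near Eea1, an early endosome protein, held the Runx core on both strands, and the Gm34464 window held only the ETS core of these motifs. The Gm51710 window lies inside Smad3, the signal transducer of TGF-beta receptors, and held neither. Across all 36 windows CAGGAA was in 18 (50%), against 33.5% of all lncRNA windows and 30.6% of all 32851 windows. TGTGGT was in 8 (22.2%), against 20% of lncRNA windows. The GATA core AGATAA was in 4 (11.1%), against 14% of lncRNA windows, and the E-box CAGCTG was in 5 (13.9%), against 17.7%. A window could hold several of these, and a match describes letters and not a bound site.

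Freedom from H3K4me3 set the constant active enhancers apart from most active regions of these cells. Of the 10735 regions that met every other criterion, 9140 (85.1%) met an H3K4me3 peak of at least 1 list and 6860 (63.9%) of all 4 lists. H3K4me3 was present in exactly 1, 2 and 3 lists for 799, 695 and 786 regions. With only the H3K4me3 criterion dropped, the set would hold 10735 regions, and with exclusion only by 2 or more lists it would hold 2394. Regions just outside the limit, with H3K4me3 in 1 list, averaged over libraries to a median of 1010 bp of H3K27ac, against 827.5 bp in members. At the distance limit, the 23 members at 1500 bp or less from a gene end had a median of 878.5 bp, and the 25 otherwise eligible regions over 500 and up to 1000 bp from one had 821.5 bp.

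**Figure D1:**
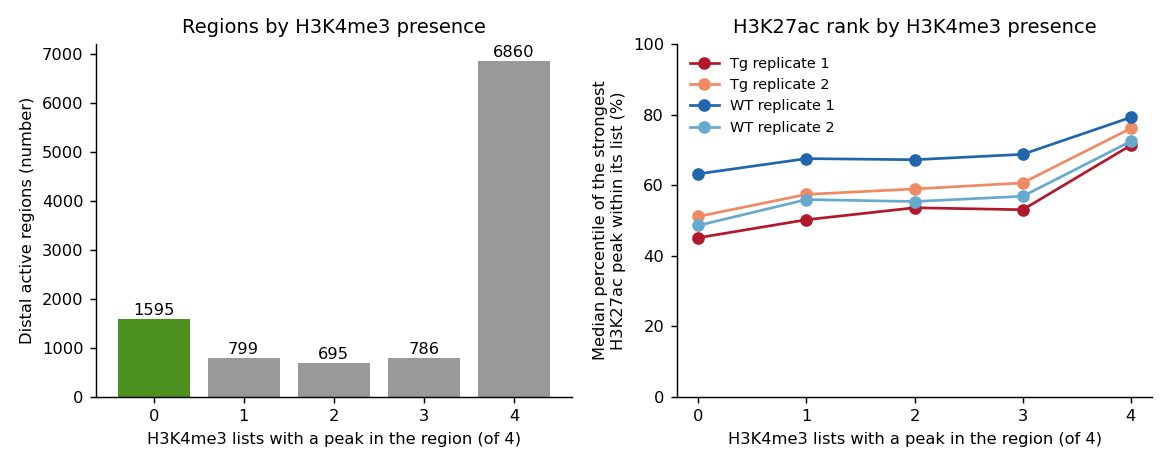
Distal active regions by the number of H3K4me3 lists with a peak in them (left, number of regions; the 1595 constant active enhancers in green) and, for the same classes, the median within-list percentile of the strongest H3K27ac peak in each library (right, %). In each library the class without H3K4me3 has the lowest percentile and the class with H3K4me3 in 4 lists the highest.

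The acetylation of constant active enhancers was of middling rank. Each H3K27ac peak was ranked within its own list by the authors' −log10 q-value, so that a percentile of 60 means stronger than 60% of that list's peaks. The median percentile of members was 45.1 and 51.1 in Tg, against 63.2 and 48.6 in WT. Distal active regions with H3K4me3 in all 4 lists stood at 71.3 and 76.1 in Tg, against 79.2 and 72.4 in WT. H3K27ac in all 4 lists was required of both classes. The percentile is that of the strongest peak in a region, and a wider region has more room for one. Regions with H3K4me3 in all 4 lists had a median width of 2571.5 bp, against 2090 bp for members. The part of width in the differences between these classes was not tested. Members were lower in 4 of 4 libraries, by 22.8 ± 4.60 percentage points (SD over libraries, n = 4; exact paired permutation test, two-sided p = 0.125, the smallest 4 pairs allow). By length within the region, members had 635 and 702 bp of H3K27ac in Tg and 1071 and 837 bp in WT, against 758 and 900 bp in Tg and 1171.5 and 964 bp in WT for the distal regions with H3K4me3 in all 4 lists, and were the shorter in 4 of 4 libraries. Against H3K4me3-bearing regions, which have H3K4me1, H3K27ac and H3K4me3 in all 4 lists at any distance from genes, the comparison turned on how length was counted. Within the region, members had 811 ± 192 bp of H3K27ac, against 639 ± 106 bp in these (SD, n = 4; exact two-sided p = 0.125, longer in 4 of 4 libraries). With whole peaks counted past the region's edges, members had 694 and 790 bp in Tg and 1416 and 1055 bp in WT. The H3K4me3-bearing regions then had 1324.5 and 1653.5 bp in Tg and 2008.5 and 1793 bp in WT, so the members' peaks were the shorter in 4 of 4 libraries.

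Ranked by −log10 q, H3K4me1 at the same regions stood above that of primed enhancers and below that of the other distal active regions, in part by little. Its median percentile in members was 82.4 and 87.3 in Tg, against 76.0 and 86.4 in WT. In the 9746 primed enhancers, which met the same rule but held no H3K27ac peak of any list, it was 54.4 and 63.9 in Tg, against 48.5 and 64.9 in WT. The difference was 25.1 ± 3.13 percentage points, with members higher in 4 of 4 libraries (SD, n = 4; exact two-sided p = 0.125). Distal active regions with H3K4me3 in all 4 lists stood at 82.6 and 88.4 in Tg, against 83.6 and 89.9 in WT, and those with H3K4me3 in 1 list at 87.4 and 90.9 in Tg, against 82.8 and 90.4 in WT. Members were the lower in each library, which was not tested. Ranked by the authors' fold over background instead, members stood at 77.5 and 86.0 in Tg, against 73.5 and 84.6 in WT. Distal active regions with H3K4me3 in all 4 lists then stood at 72.9 and 86.1 in Tg, against 75.9 and 86.8 in WT, so members were the higher in Tg replicate 1. H3K4me1 covered 1515 ± 381 bp per member, against 846 ± 257 bp per primed enhancer, a difference of 670 ± 129 bp (SD, n = 4; exact two-sided p = 0.125). Member regions were wider, with a median of 2090 bp, against 1365 bp for primed enhancers. A wider region has more room to meet a peak of any list, and the part of width in these differences was not tested.

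**Figure D2:**
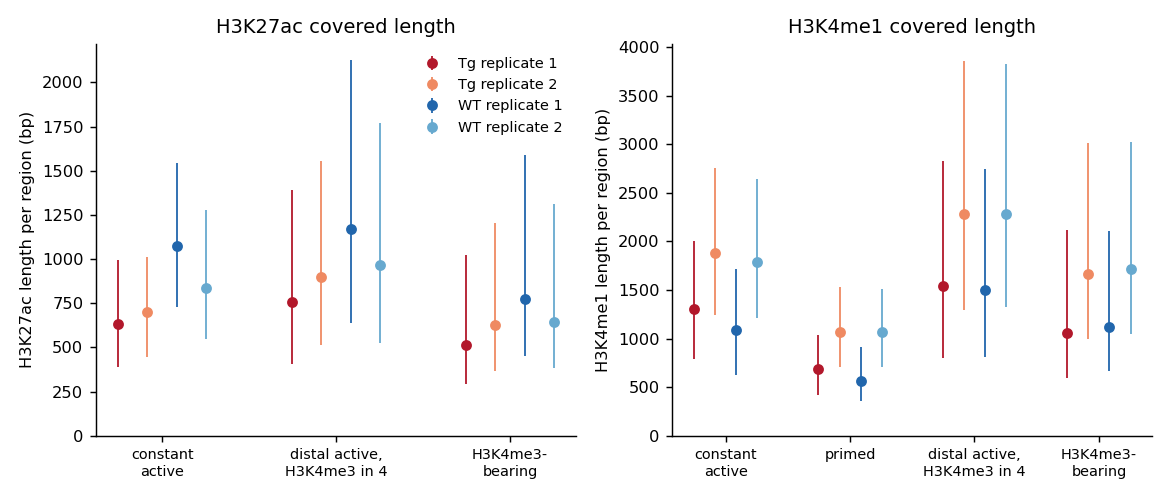
Length covered by H3K27ac peaks (left) and H3K4me1 peaks (right) per region in bp, with the median as a point and the quartiles as a bar for each library. Within the region, H3K27ac is longer in constant active enhancers than in H3K4me3-bearing regions at any distance, and H3K4me1 is longer than in primed enhancers, in each of 4 libraries.

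Acetylation filled part of a constant active enhancer, as it did in the other active classes. A single H3K27ac peak lay in 72.1% and 69.9% of members in Tg, against 73.3% and 79.9% in WT. H3K27ac spanned a median of 33.1% and 35.3% of the region in Tg, against 56.7% and 45.5% in WT. In distal active regions with H3K4me3 in all 4 lists it spanned 32.6% and 38.1% in Tg, against 50.3% and 41.5% in WT. The median distance between the strongest summits of a pair of libraries was 92 to 131 bp for H3K27ac and 157 to 213 bp for H3K4me1. Many lay farther apart, since 59.4% to 69.2% of members had H3K27ac summits within 200 bp of each other and 48.7% to 55.7% had H3K4me1 summits that near. From the strongest H3K27ac summit to the nearest H3K4me1 summit of the same genotype and replicate number the median was 119 and 238 bp in Tg, against 124 and 186 bp in WT. The strongest H3K27ac summit fell inside the member itself in all 4 libraries for 1274 members (79.9%). A further limit is that 218 members (13.7%) shared an H3K27ac peak with an H3K4me1 region that holds H3K4me3, and 164 (10.3%) shared one with another member.

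The median distance from a constant active enhancer to the nearest protein-coding gene end was 22926 bp, against 17732.5 bp for primed enhancers and 10958 bp for distal active regions with H3K4me3 in all 4 lists. Those within 5 kb of a gene end made up 13.5% of members, against 16.2% of primed enhancers and 33.3% of the H3K4me3 class. Another 179 members (11.2%) were over 100 kb away, up to 535365 bp. Fewer members lay in a gene, 787 of 1595 (49.3%), against 63.7% of primed enhancers and 66.2% of the H3K4me3 class. These positions are given without a test. Another member lay within 12.5 kb for 389 members (24.4%).

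**Figure D3:**
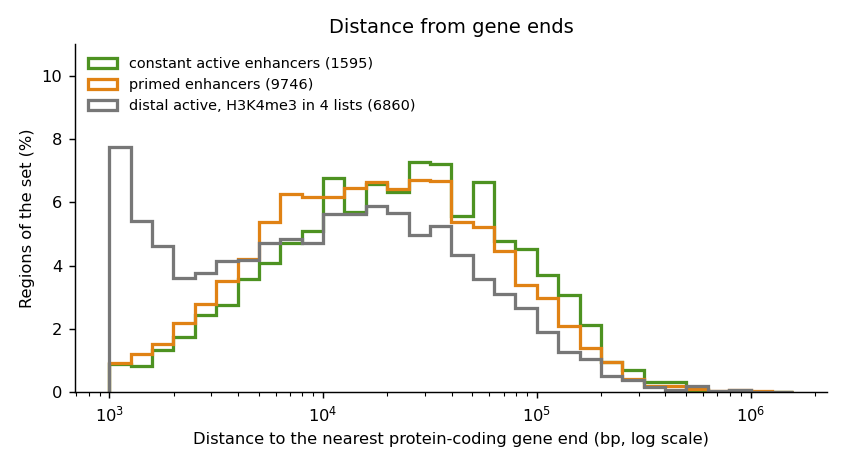
Distance from a region to the nearest protein-coding gene end (bp, log scale) as the percentage of each set, for constant active enhancers, primed enhancers and distal active regions with H3K4me3 in all 4 lists. The H3K4me3 class peaks near 1 kb, where few members lie.

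The share of distal active regions that were members differed between chromosomes. It was 10.1% on chromosome 4, 20% on chromosome 16 and 24.3% on chromosome X, where 27 of 111 distal active regions were members. The H3K4me3 libraries differed in peaks at Y-linked genes, and the part of this in the value on X was not tested.

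The strongest constant active enhancers were ranked by their lowest H3K27ac percentile over the 4 lists, which describes the choice. At the top was a member inside Spatc1 at 96.7, with 1976 and 1509 bp in Tg, against 2021 and 1752 bp in WT. It was followed by 1 member 113841 bp from Thbs1, which encodes the matrix protein thrombospondin 1, at 94.7. A member by Lyst, whose loss causes the giant granules of Chediak-Higashi disease, stood at 90.1 and another by Cd300a, an inhibitory receptor of myeloid cells, at 88.7. Members by Rab7, Samsn1 and Serpine2 and inside Nod2, an intracellular sensor of bacterial wall fragments, stood between 86.0 and 87.3. A pair of members by Inhba, a subunit of activins, shared 1 peak at 86.8. In the Nod2 member, 627 bp of H3K27ac covered the entire region in each of the 4 libraries.

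The longest acetylated members were inside Vps13d, Pecam1, Fmnl2 and Acoxl and far from Jun. The Vps13d member, at chr4:145016159-145028858 and the widest of all at 12700 bp, held 3922 and 4731 bp in Tg, against 7100 and 3428 bp in WT. The genotypes overlap there. The Jun member, 156071 bp from that gene of the AP-1 factor, held 1784 and 2292 bp in Tg, against 6044 and 6107 bp in WT. The Fmnl2 member, in a gene for a formin of the actin skeleton, held 1474 and 2180 bp in Tg, against 6193 and 6121 bp in WT. In both of these each Tg library lay below each WT library, but neither passed the test of all regions described with the genotype comparison (limma adjusted p = 0.232 for Jun and 0.195 for Fmnl2).

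Genes that collected several constant active enhancers were few. Within 100 kb, 1488 members (93.3%) had a nearest protein-coding gene, and these were 1118 genes, of which 870 had 1 member. Itpr1, the calcium channel opened by inositol trisphosphate, led with 10 of its 21 distal active regions. Of the Itpr1 members 8 lay inside the gene and 2 past its end of higher coordinate, and their lowest percentile ran from 3.3 to 85.9. The member at chr6:108502019-108503762 was the strongest there, with 1132 and 1026 bp in Tg, against 1264 and 1334 bp in WT. Irf2bp2, which encodes a corepressor, had 6 members of 12 distal active regions, none of them in the gene. Sipa1l1, which acts on the small GTPase Rap, had 6 of 17. Itpr1 spans 338034 bp and Sipa1l1 282410 bp, against a median of 17169 bp over all protein-coding genes. Irf2bp2 spans only 5691 bp. A longer gene has more room for regions, and the part of gene length in the counts here and below was not tested.

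The transcription factor genes Erg and Smad3 had 5 members each, of 12 and 11 distal active regions. Cables1, Fmnl2 and LOC108168726 also had 5. There were 4 members each at Foxp1, a forkhead factor, Il1b, the inflammatory cytokine, Litaf, a gene induced by bacterial lipopolysaccharide, and Trim33, a ligase of the TGF-beta pathway. The same number was found at Acoxl, B4galt5, Fndc3b, Hpcal1, Kcnh7, Nudt7, Snx29, Srpk2 and Tbc1d23. Foxp1 had 22 distal active regions in all and Acoxl 4, so that the share of members ranged widely between genes. Another 65 genes were tied at 3 members and are not named.

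Of 17 genes of blood stem and progenitor cells looked up by name, 9 had distal active regions but no constant active enhancer within 50 kb. A member within that span is uncommon for any gene, since 10.1% of all protein-coding genes had one. Lmo2 had 7 distal active regions, Myb 5, Lyl1 4, Spi1 3, Cebpa and Mpo 2 each and Tal1 1, and every one of these carried H3K4me3 in all 4 lists. Fli1 had 6, of which 5 carried H3K4me3 in all 4 lists and 1 in fewer. Gata2 had 1, with H3K4me3 in fewer than 4 lists. Kit itself had 6 primed enhancers and no distal active region, and Meis1, Myc, Gfi1b, Hoxa9 and Phf6 had no distal active region in that span. So of 5 genes taken as markers of cKit+ progenitors (Kit, Gata2, Myb, Spi1 and Cd34), Cd34 alone had a member, the only distal active region near it.

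Erg and Runx1 were the exceptions among the 7 genes of the stem cell factor heptad (Tal1, Lyl1, Lmo2, Gata2, Runx1, Erg and Fli1), which act together on blood stem cell enhancers. Erg had 5 members, all inside the gene, and Runx1 had 3 members of 12 distal active regions, likewise inside the gene. Both are long, at 227432 bp for Erg and 224609 bp for Runx1, against a median of 23976 bp over the 7 genes. The part of length was not tested. Within 50 kb of the heptad, 8 of 43 distal active regions were members (18.6%), against 14.9% of all distal active regions. The Runx1 member at chr16:92723857-92730512 held 1725 and 2414 bp of H3K27ac in Tg, against 1473 and 1127 bp in WT. Each Tg library was above each WT library there. The Runx1 member nearest the gene's lower end, at chr16:92611938-92614173, held 325 and 808 bp in Tg, against 945 and 659 bp in WT, and the genotypes overlap.

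Erg showed both orders among its members. The one at chr16:95415155-95417157 held 1235 and 1430 bp in Tg, against 452 and 927 bp in WT. The one at chr16:95384159-95386702 held 594 and 800 bp in Tg, against 1506 and 1184 bp in WT. The first was longer in both Tg libraries and the other shorter, and neither passed the test over all regions (limma adjusted p = 0.362 and 0.649).

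**Figure D4:**
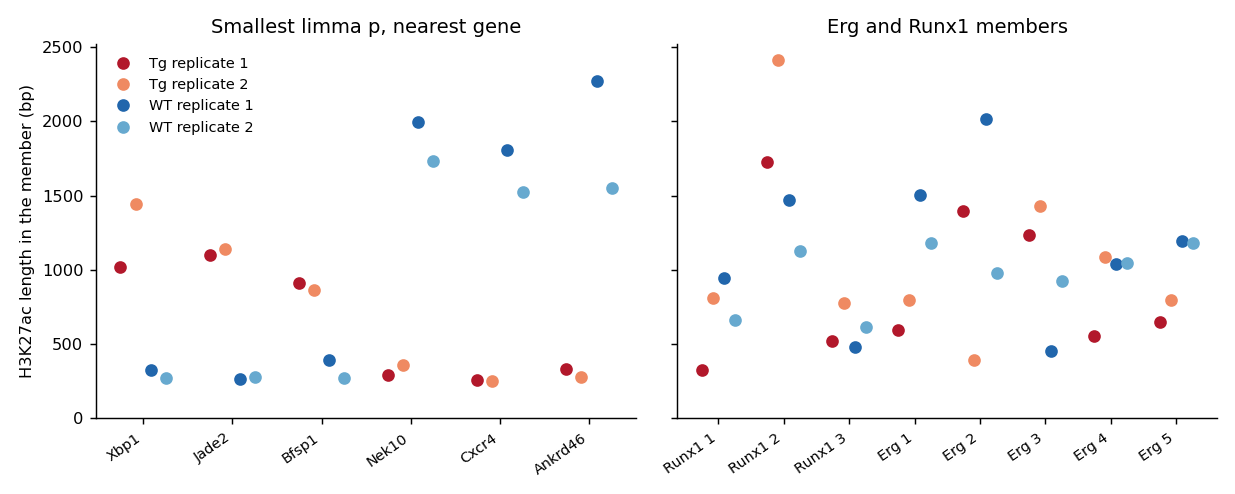
H3K27ac length in bp in each library for the 6 members with the smallest limma p (left, by nearest gene) and for the members of Runx1 and Erg in genome order (right). Each Tg point lies above or below both WT points for the members on the left, while the Runx1 and Erg members go either way or overlap.

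By gene list, constant active enhancers were most often found near monocyte and macrophage genes and near genes of NF-kB and TNF signalling. Of all 21887 protein-coding genes, 2219 (10.1%) had a member within 50 kb and 43.0% had any distal active region. Of 12 monocyte and macrophage genes, 7 (58.3%) had a member, with a median of 1 member per gene, against 0 over all genes. These were Adgre1, the F4/80 antigen, with 2, and Ly86, Cx3cr1, Ccr2, Lyz2, Cd14 and Tlr4 with 1 each, while 8 of the 30 distal active regions near the list were members. Of 15 NF-kB and TNF signalling genes, 6 (40%) had a member, with a median of 0. Any distal active region was near 14 of the 15 (93.3%), against 43.0% of all genes, and 10 of the 56 regions (17.9%) were members, against 14.9% of all distal active regions. Il1b had 4, the chemokine gene Cxcl2 had 2, the chemokine genes Ccl3 and Ccl4 shared 2, and Nfkb1 and Tnfaip3, which encodes a brake on the pathway, had 1 each.

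Of 17 cytokine and niche receptor genes, 4 (23.5%) had a member, and 10 of 34 distal active regions were members. Csf2ra and Csf2rb, both chains of the GM-CSF receptor, had 3 each. Cxcr4, the receptor that holds progenitors in the marrow, had 3 and Cd34 had 1. Of 15 myeloid transcription factors, Cebpb, Cebpd and Gfi1 had 1 member each. Of 18 stem cell and self-renewal genes only Etv6 did, with 3 of its 21 distal active regions. In the lists of granule genes, Srgn among 8 primary ones and Ltf, Ly6g and Cd177 among 12 secondary and tertiary ones had 1 each.

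Among 16 cell cycle genes, Cdk4, Cdk6 and Ccnb1 had a member within 50 kb. Of 20 cytosolic ribosomal protein genes 14 had a distal active region within 50 kb, and Rps19 alone had a member. Of 12 megakaryocyte genes F2rl2 had a member, and of 12 stroma and endothelium genes Pecam1 and Sparc did. None of the erythroid, mast cell, B-lymphoid, T-lymphoid and NK cell genes had one, although 3, 3, 4, 3 and 2 of them had a distal active region. Within 100 kb, 4 of 12 T-lymphoid genes (33.3%) had a member, against 16.3% of all genes, as did 1 gene each of the mast cell, B-lymphoid and NK cell lists and 0 erythroid genes. Those 4 T-lymphoid genes met only 2 distinct members, 1 by Gata3 and 1 shared by Cd3d, Cd3e and Cd3g, which are neighbours on chromosome 9. Of lists for tissues not sampled, 2 of 12 liver genes (Apoa1 and Ttr) and 0 of 12 neuron and glia genes had a member. The lists hold 7 to 20 genes, differ in gene length and local gene density, and were not tested. Whether more mature cells of the sort contributed to regions near monocyte genes was not tested.

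**Figure D5:**
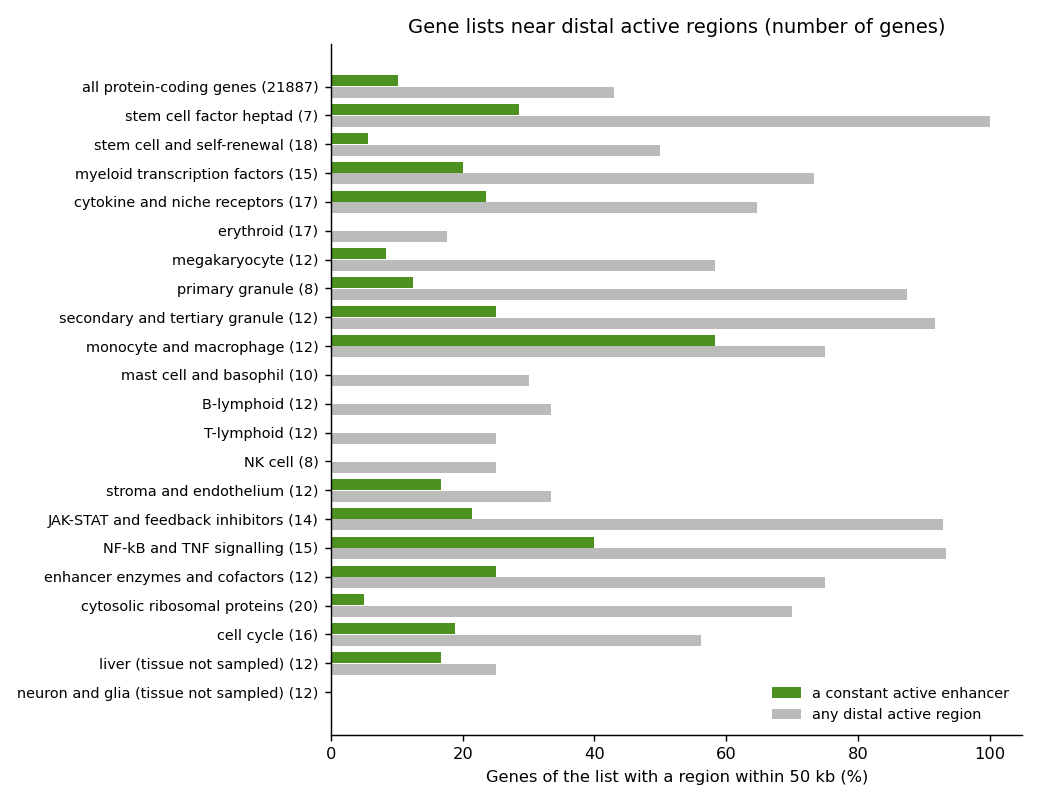
Percentage of the genes of each list with a constant active enhancer (green) or any distal active region (grey) within 50 kb, with the number of genes in brackets. The monocyte and macrophage list reaches 58.3% and the NF-kB and TNF list 40% for constant active enhancers, against 10.1% of all protein-coding genes.

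The genotypes were compared by the length of each region that peaks cover, and no constant active enhancer passed the test for either mark. Median H3K27ac length per member was 635 and 702 bp in Tg, against 1071 and 837 bp in WT. The means were 669 ± 47.4 bp in Tg and 954 ± 165 bp in WT (SD, n = 2 each; exact permutation test, two-sided p = 0.333, the smallest that 2 against 2 allows). Of the members, 842 (52.8%) were shorter in both Tg libraries than in both WT libraries and 122 (7.65%) were longer. Over all 23844 regions with H3K27ac in every list, these shares were 42.3% and 6.98%. Whole H3K27ac lists differed in the same direction, with a median peak width of 591 and 574 bp in Tg, against 717 and 852 bp in WT, and the part of this in the members' lengths was not tested. In bulk cells, fewer cells with a mark and less of it per cell cannot be told apart.

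The share of H3K27ac peaks that lay in members was 6.37% and 5.58% in Tg, against 4.96% and 6.13% in WT. The means were 5.98 ± 0.560% in Tg and 5.55 ± 0.828% in WT (SD, n = 2 each; exact two-sided p = 0.667), and the difference of 0.428 percentage points turned to -0.158 without WT replicate 1. Median H3K4me1 length was 1301 and 1882 bp in Tg, against 1090 and 1788 bp in WT. The means were 1592 ± 411 bp in Tg and 1439 ± 494 bp in WT (SD, n = 2 each; exact two-sided p = 0.667). That difference of 152.5 bp turned to -138 bp without Tg replicate 2 and to -196.5 bp without WT replicate 1. Replicate 2 libraries of both genotypes had the longer H3K4me1, so the replicates of a genotype lay farther apart than the genotypes. Of the members, 164 (10.3%) had longer H3K4me1 in both Tg libraries and 61 (3.82%) shorter, against 8.31% and 8.72% of all regions in every H3K4me1 list.

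For single regions, limma was run on quantile-normalised log2(bp + 100) over 36612 regions for H3K27ac, with Benjamini-Hochberg adjustment. It called 0 members and 0 regions in all (0%) at an adjusted p of 0.05. At an unadjusted p under 0.05 there were 154 members (9.66%), of which 62 were higher and 92 lower in Tg. Of all regions 13.3% were under it, 5.33% higher and 7.98% lower. Members have an H3K27ac peak in all 4 libraries by rule, whereas these regions needed one in at least 2. Fitted only to the 23844 regions with a peak in all 4 libraries, the order turned. There 343 members (21.5%) were under it, 117 higher and 226 lower, against 12.3% of all, 1270 higher and 1660 lower. In the fit of 36612 regions the median log2 change was -0.05 in members and 0.10 over all regions. There 738 members (46.3%) were higher in Tg, against 56.4% of all regions. Without normalization the median of all regions was -0.34 and that of members -0.44, and 333 members (20.9%) were higher, against 24.1% of all regions. Limma then called 15 members, 1 higher and 14 lower in Tg. Of all regions it called 1539 (4.2%), 375 higher and 1164 lower.

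The members with the smallest p are given as not passing. By Xbp1, the transcription factor of the unfolded protein response, the member at chr11:5508283-5510670 held 1018 and 1444 bp in Tg, against 323 and 273 bp in WT (log2 change 2.38 ± 0.34, SE; limma adjusted p = 0.0864). By Jade2, whose protein belongs to a histone acetyltransferase complex, the member at chr11:51910731-51912619 held 1097 and 1141 bp in Tg, against 266 and 277 bp in WT (2.37 ± 0.38; limma adjusted p = 0.0864). In both, the Tg libraries stood clear above the WT libraries. The member in Bfsp1, a lens filament gene, held 912 and 863 bp in Tg, against 391 and 273 bp in WT (1.70 ± 0.33; limma adjusted p = 0.110).

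The opposite order was seen near Cxcr4. The member at chr1:128574002-128577675, which is 10524 bp from Cxcr4, held 255 and 253 bp of H3K27ac in Tg, against 1808 and 1525 bp in WT (log2 change -2.05 ± 0.36, SE; limma adjusted p = 0.0960). Inside Nek10, a kinase gene, the member at chr14:14833631-14835700 held 289 and 360 bp in Tg, against 1996 and 1734 bp in WT (-1.83 ± 0.31; limma adjusted p = 0.0942). The member nearest to Ankrd46, 80136 bp away, held 331 and 279 bp in Tg, against 2273 and 1554 bp in WT (-1.97 ± 0.38; limma adjusted p = 0.110). The rule required an H3K27ac peak in every library, and in all 3 the acetylated stretch was short in both Tg libraries. Without normalization the members by Jade2, Cxcr4 and Nek10 passed, with limma adjusted p of 0.0317, 0.0304 and 0.0374.

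For H3K4me1, limma over 92031 regions called 0 members and 0 regions in all (0%). At an unadjusted p under 0.05 there were 14 members (0.88%), 11 higher and 3 lower in Tg. Of all regions 7.74% were under it, 3.59% higher and 4.15% lower. Members have an H3K4me1 peak in all 4 libraries by rule, whereas these regions needed one in at least 2. When limma was fitted only to the 46121 regions with an H3K4me1 peak in all 4 libraries, 53 members (3.32%) were under that unadjusted p, against 5.77% of all. The median log2 change was 0.09 in members and 0.01 over all regions. The smallest p was at a member by Larp4b, which encodes an RNA-binding protein, with 1812 and 2186 bp in Tg, against 501 and 813 bp in WT (1.46 ± 0.31, SE; limma adjusted p = 0.332). A member by Rbm19 followed, with 1343 and 1868 bp in Tg, against 289 and 978 bp in WT, and then one by Kat2b, a histone acetyltransferase gene, with a log2 change of 0.99. Among those shorter in Tg, the member by Plcb4, a phospholipase C gene, held 434 and 1108 bp in Tg, against 1336 and 2564 bp in WT (-1.32 ± 0.34; limma adjusted p = 0.356). Members by Rsph3a and Lrrc29 had log2 changes of -0.95 and -2.05.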

How the data were processed

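Per the labels, cKit+ cells were sorted from bone marrow, and True MicroChIP precipitates were sequenced as 75 bp single-end reads. The submitters' processing notes name build mm10 and the tools MACS2, Bowtie2, Trim Galore, SAMtools, FastQC and deepTools; their settings and any input control are not given in the sources used here. The authors deposited 12 peak lists, 1 per library, so that replicates were called separately. Each deposited peak has a position, a score, a fold (ratio) over background at the summit, a −log10 p-value and q-value, and a summit offset. The fold and −log10 values are the authors' own and were used only to rank or filter peaks within a list.

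Python 3.11.15 with pandas 2.3.3 and scipy 1.17.1 was used to merge peaks (overlap of 1 bp or more) and to measure distances to both ends of 21887 RefSeq protein-coding genes of GRCm38.p6. Regions with a peak in at least 2 libraries of a mark were tested with limma 3.58.1 (R 4.3.3). A check on simulated data required changes to be found only at a spread far smaller than that of these data. That check cannot show what limma could find at the spread seen here. Medians per library were compared by exact permutation. The alternatives were stricter peaks, other distances, overlaps, pseudocounts, normalizations and filters, whole peaks, left-out libraries and replicate blocks.

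Members and gene lists were chosen with earlier results of these data known. Named are the genes with most members, always the heptad, Kit and other regulators, up to 4 genes per list (further ones of the monocyte and NF-kB lists were named after their values were seen), the 10 strongest and 5 longest members and, as none passed limma, the 3 with the smallest p per direction and mark. The rule asked for 25 genes with most members, but 65 tie below the first 21, and the tie was not split. The genes of 2 further lists, of JAK-STAT signalling and of enhancer enzymes, are not reported here one by one. No genome sequence was used here, so motifs around summits were not searched. The comparison of H3K27ac percentiles was added after the data were seen.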

Additional observations from a re-analysis of the deposited data

How the results depend on the processing

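The number of constant active enhancers follows the H3K4me3 criterion: it was 10735 without it and 2394 when 2 lists were needed, against 1595. Leaving out a library number of 1 genotype gave 2131 to 2817, the highest without Tg replicate 1. Such a count tends to grow, since fewer lists must be met, although regions were merged anew from the remaining lists. With peaks at −log10 q of at least 5 there were 1240, with overlaps of 200 bp 1913, and over 2 or 5 kb from genes 1547 and 1379.

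Limma called 0 members under every alternative for H3K4me1, and under every one for H3K27ac except no normalization, where 15 passed, with log2 changes of 1.71 by Jade2, -2.21 by Nek10 and -2.31 by Cxcr4; the cause was not tested. With left-out libraries it called 0 to 0. Rsph3a reversed to 0.29 with the stricter peaks; the cause was not tested. Leaving out each library gave -402.5 to -168.5 bp for H3K27ac length (Tg minus WT), -196.5 to 501.5 bp for H3K4me1 length, reversed to -138 bp without Tg replicate 2 and -196.5 bp without WT replicate 1, and -0.158 to 1.01 percentage points for the share of H3K27ac peaks, reversed to -0.158 without WT replicate 1. Members minus primed enhancers ranged from 620.5 to 719 bp and 24.2 to 26.3 percentage points of H3K4me1. H3K27ac percentiles of members minus the H3K4me3 class ranged from -25.0 to -21.6. H3K27ac length minus H3K4me3-bearing regions ranged from 131 to 204 bp, but was -706 bp with whole peaks, an alternative chosen after seeing the data, because their peaks run past the region's edges. Within 100 kb, 16.3% of genes had a member, by construction of the wider window. Of 79 other recomputed summary values, the differences kept their sign, limma counts stayed at 0, and the numbers of members are those given above. The smallest exact p possible was 0.333 for 2 against 2 libraries and 0.125 for 4 pairs. Their p-values could therefore not pass 0.05 under any setting, and only the sign could change.

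Replicate numbers are shared by the genotypes but no label says that they pair. Deviations of same-numbered libraries correlated at -0.17 for H3K27ac and 0.21 for H3K4me1. With the replicate block limma called 0 members for both marks (92 members at unadjusted p under 0.05 for H3K27ac), and with the crossed block, added after seeing the data, 0 (165). A planned search for motifs around summits was not run. Depth is unknown, and 2 libraries per genotype limit every comparison between them.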
